A study of Mus musculus with 16 samples.

Results

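SR proteins are RNA-binding splicing factors that carry an RNA-recognition domain and a tail of arginine and serine repeats. They bind exons of nascent transcripts and help recruit the spliceosome, and several of them also take part in mRNA export and translation. The tail is phosphorylated in the cytoplasm by the SRPK kinases and in the nucleus by the CLK kinases, which release SR proteins from nuclear speckles. Genes of both families are known to regulate their own output through alternative splicing, either by exons that send the transcript to nonsense-mediated decay or by introns retained in the nucleus. In endothelial cells, Srsf1 is known to promote an intron-retaining form of the endoglin transcript as the cells age. The results below concern 10 such genes, namely the SR proteins Srsf1, Srsf2, Srsf3, Srsf5, Srsf6 and Srsf7, the kinases Clk1, Clk2 and Clk4, and Rsrp1, which encodes a protein rich in arginine and serine. The genes were chosen from their levels, their difference between *APOE4* and *APOE3* and their relation over libraries in these same data. All 10 were found in the count table by their gene symbols and passed the filter on low counts, among 12481 genes tested and 39057 genes in the table. None of them passed only because of 1 genotype, since their lowest count in any library was 300 and their highest was 4900.

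The data were RNA sequencing counts from 16 primary cultures of cortical brain endothelial cells, 8 of genotype *APOE3* and 8 of genotype *APOE4*, each with 4 male and 4 female mice. In these targeted replacement mice the human *APOE* gene, as isoform E3 or E4, stands in place of the mouse gene and is driven by the mouse promoter in every cell type that uses it. The mice were 21 to 28 days old, and cultures of both genotypes were passage 0, were selected in 8 µg/ml puromycin and received no treatment. Each culture came from a different animal, so the spread between libraries holds the spread between animals and between isolations.

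Total counts were 12717847 to 18624417 per library, and libraries correlated with each other at a Spearman rho of 0.979 to 0.996. The 6 endothelial markers Pecam1, Cdh5, Cldn5, Kdr, Flt1 and Tek were abundant in all libraries, with a summed level of 9791 to 10673 CPM (counts scaled to a common library size) in *APOE3* and 9871 to 10655 CPM in *APOE4* libraries. Markers of pericytes and smooth muscle, led by Tagln and Acta2, summed to 182 to 339 CPM in *APOE3* and 218 to 326 CPM in *APOE4* libraries. The microglial gene P2ry12 and the oligodendrocyte genes Olig1 and Olig2 had 0 counts in all libraries, and the astrocyte gene Aqp4 had at most 2. A lower level in such bulk samples cannot be told apart from fewer cells of a type that uses the gene.

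Of the 10 genes, 9 had a promoter window in the RefSeq table of GRCm38.p6, from 250 bases before to 50 bases after the start, and Clk1 was not among them. Stretches of 4 windows are shown, since they come from an SR protein with a single RNA-recognition domain (Srsf3), an SR protein with a second one (Srsf5), a CLK kinase (Clk4) and the gene with the largest difference between genotypes (Rsrp1). Each is read 5′ to 3′ on the gene's strand, lies in GRCm38 and holds no annotated exon. Those of Srsf5 and Clk4 end at the RefSeq start, and those of Srsf3 and Rsrp1 end before it, where annotated exons begin. The Clk4 stretch lies inside the annotated gene, which starts at 51261730, upstream of the RefSeq start used here. Capitals mark the CCAAT box (CCAAT), the GC box (GGGCGG) and the cAMP response element, short (TGACG) and full (TGACGTCA), on either strand.
Srsf3, chr17:29032569-29032627, plus strand: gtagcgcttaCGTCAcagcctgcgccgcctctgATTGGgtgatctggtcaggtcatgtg
Srsf5, chr12:80945397-80945498, plus strand: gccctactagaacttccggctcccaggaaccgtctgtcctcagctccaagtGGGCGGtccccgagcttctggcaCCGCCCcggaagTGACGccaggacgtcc
Clk4, chr11:51263047-51263113, plus strand: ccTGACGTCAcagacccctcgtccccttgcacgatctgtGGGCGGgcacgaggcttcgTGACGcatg
Rsrp1, chr4:134923442-134923591, plus strand: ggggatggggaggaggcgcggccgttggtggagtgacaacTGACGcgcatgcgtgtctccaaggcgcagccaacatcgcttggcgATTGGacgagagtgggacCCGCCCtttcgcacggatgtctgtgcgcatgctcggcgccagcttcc

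The short element TGACG stood in 8 of the 9 windows, all but that of Srsf7, and in 31.2% of 12220 windows of genes tested. In the stretches above it is read as CGTCA in Srsf3, as TGACG in Srsf5 and Rsrp1, and both inside the full element and once more near the start in Clk4. The full element TGACGTCA was present in the Clk4 window and in 3.04% of windows of genes tested. The GC box was found in 8 of 9 windows, all but that of Srsf3, beside 63.5% of windows of genes tested, and the CCAAT box in 5 of 9 beside 37.6%. The TATA box (TATAAA) was found in Srsf2 and Srsf3, beside 6.83% of windows of genes tested. The heat-shock element (GAANNTTC) was found in 0 of the 9 windows, beside 5.76% of windows of genes tested. TGACG and GGGCGG both hold a CpG, and the windows held 20 to 45 CpG dinucleotides, beside a median of 21 over genes tested. These matches describe the letters of the windows and were not tested.

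The annotation (GENCODE vM21) shared a feature across the 10 genes that bears on what a count means. All 10 had at least 1 transcript annotated as a retained intron, beside 60.5% of 11743 protein-coding genes tested, and 9 of 10, all but Rsrp1, had at least 1 annotated for nonsense-mediated decay, beside 29.5%. Retained-intron and decay transcripts made up a median of 50% of the transcripts of the 10 genes and 25% of those of all coding genes tested. Clk1 had 7 retained-intron transcripts among 13, and Clk4 had 7 among 14. Reads were counted per gene, so productive and unproductive transcripts of a gene are summed in each value given here.

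Levels between genes were compared per kilobase of exon, taken as the union of exons over all annotated transcripts. That length includes retained introns, so the order below depends on the annotation. In mean CPM, Srsf3 (65.7 in *APOE3*, 66.0 in *APOE4*) stood above Clk2 (60.8 and 53.3) and Srsf7 (46.1 and 48.0). Its annotated exons span 7.90 kb, those of Clk2 5.30 kb and those of Srsf7 3.55 kb. Over both genotypes the highest means were those of Rsrp1 with 73.4 ± 10.5 CPM per kb (SD, n = 16 libraries), Srsf2 with 66.8 ± 3.43 and Srsf5 with 61.7 ± 5.24 CPM per kb. These 3 neighbours overlapped, with Rsrp1 above Srsf2 in 11 of 16 libraries and Srsf2 above Srsf5 in 12 of 16. The gap between the first 2 depended on genotype. Rsrp1 had 81.9 ± 6.02 and Srsf2 67.1 ± 3.95 CPM per kb in *APOE3* libraries (SD, n = 8). In *APOE4* libraries they had 64.9 ± 5.85 and 66.6 ± 3.07 CPM per kb (SD, n = 8) and could not be ordered. A gap without overlap followed, to Srsf6 with 27.5 ± 1.11 and Srsf1 with 21.3 ± 1.03 CPM per kb. Srsf7 had 13.2 ± 1.12 CPM per kb. Clk2 with 10.8 ± 0.964 and Clk1 with 10.7 ± 0.964 CPM per kb could not be ordered, Clk2 being above Clk1 in 9 of 16 libraries. Srsf3 had 8.33 ± 0.385 CPM per kb, and Clk4 was lowest with 4.71 ± 0.492 CPM per kb in a range below all others. The coefficient of variation over all 16 libraries was 4.02% to 10.4% for 9 of the genes and 14.3% for Rsrp1.

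The first question was how the 10 genes differed between *APOE4* and *APOE3* brain endothelial cells. Rsrp1, Clk2 and Srsf5 were lower in *APOE4* cultures by an adjusted p under 0.05 in edgeR's quasi-likelihood test over all genes, 0 of the 10 were higher by that rule, and the other 7 did not pass it. Over all genes 12.8% passed, 6.09% lower and 6.71% higher in *APOE4*. Because the genes were chosen from this contrast, the count is a description and nothing is read from it, and no p-value of theirs is given. The levels below are CPM per library after scaling by the trimmed mean of M values (TMM).

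Rsrp1 (ENSMUSG00000037266.18, chromosome 4 from 134923592 to 134927671) had the largest difference. Its lowest, median and highest levels were 245, 272 and 313 CPM in *APOE3* libraries and 183, 219 and 244 CPM in *APOE4* libraries. All 8 *APOE4* libraries thus lay below all 8 *APOE3* libraries, although the highest *APOE4* library (replicate 36, 243.7 CPM) came close to the lowest *APOE3* library (replicate 31, 244.8 CPM). Such a separation downward was seen in 0.369% of genes tested, and Rsrp1 was the only one of the 10 with it. The means were 274 ± 20.2 and 217 ± 19.6 CPM (SD, n = 8 each), a log2 fold change of -0.34 (SE 0.0544) or a difference of -20.8%.

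Clk2 (ENSMUSG00000068917.12, chromosome 3 from 89164795 to 89176921) encodes a nuclear kinase of SR proteins that also acts in insulin signaling. It had 55.9, 60.8 and 65.6 CPM as lowest, median and highest in *APOE3* and 48.1, 53.7 and 58.3 CPM in *APOE4* libraries. The genotypes overlapped by little, since 7 of 8 *APOE4* libraries were below the lowest *APOE3* library. Its log2 fold change was -0.19 (SE 0.0441).

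Srsf5 (ENSMUSG00000021134.17, chromosome 12 from 80945504 to 80950507), an SR protein first described as an insulin-induced gene of growing liver, ranged from 240 to 287 CPM with a median of 254 CPM in *APOE3* libraries. In *APOE4* libraries it ranged from 210 to 244 CPM with a median of 232 CPM. Again the overlap was small, with 6 of 8 *APOE4* libraries below the lowest *APOE3* library, and the log2 fold change was -0.18 (SE 0.0411). Of the 50-base stretches of its transcripts, 10.1% are shared with other annotated transcripts, above all the processed pseudogene Gm12966, so part of its reads may have been placed elsewhere.

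The sister kinases Clk1 and Clk4 were closer between genotypes. Clk4 (chromosome 11 from 51261730 to 51281766) had 23.3, 28.7 and 33.2 CPM in *APOE3* and 22.2, 25.7 and 30.1 CPM in *APOE4* libraries, for a log2 difference of -0.13 (SE 0.0668). Most of these values overlapped, and 1 of 8 *APOE4* libraries was below the lowest *APOE3* library. Clk1 (chromosome 1 from 58410189 to 58424066), whose own splicing is known to respond to temperature and stress, had 77.8, 89.9 and 98.5 CPM in *APOE3* and 70.7, 85.8 and 94.5 CPM in *APOE4* libraries, with a log2 fold change of -0.07 (SE 0.0590).

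Among the remaining SR proteins, Srsf6 (chromosome 2 from 162931528 to 162937121) had 129, 134 and 142 CPM in *APOE3* and 122, 130 and 134 CPM in *APOE4* libraries. Its log2 fold change of -0.06 (SE 0.0296) rested on the steadiest level of the 10 genes, with a coefficient of variation of 4.02%. Srsf2 (chromosome 11 from 116849901 to 116853094), a marker of nuclear speckles, had 184, 198 and 220 CPM in *APOE3* and 183, 199 and 213 CPM in *APOE4* libraries. The 2 genotypes covered nearly the same range, and the log2 fold change was -0.01 (SE 0.0385). Its exons overlap those of Mettl23 and Mfsd11 on the opposite strand over 15.6% and 9.74% of their length, so reads there are assigned correctly only if strand was used in counting.

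Srsf1, the prototype of the family and a factor that favours growth when abundant (chromosome 11 from 88047373 to 88053755), had 112, 119 and 127 CPM in *APOE3* and 116, 122 and 135 CPM in *APOE4* libraries. Its log2 fold change was 0.05 (SE 0.0348). Srsf7 (chromosome 17 from 80200080 to 80207307) had 41.4, 44.9 and 52.1 CPM in *APOE3* and 40.9, 48.8 and 53.5 CPM in *APOE4* libraries, for a log2 difference of 0.06 (SE 0.0571). Srsf3 (chromosome 17 from 29032628 to 29043373), the smallest SR protein and with Srsf7 an adaptor for mRNA export, had 61.7, 66.3 and 68.9 CPM in *APOE3* and 60.6, 67.2 and 71.7 CPM in *APOE4* libraries, and differed by 0.01 on the log2 scale (SE 0.0373). These 3 genes overlapped widely between genotypes, and 10.0% of the 50-base stretches of Srsf3 are shared with other annotated transcripts.

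**Figure D1:**
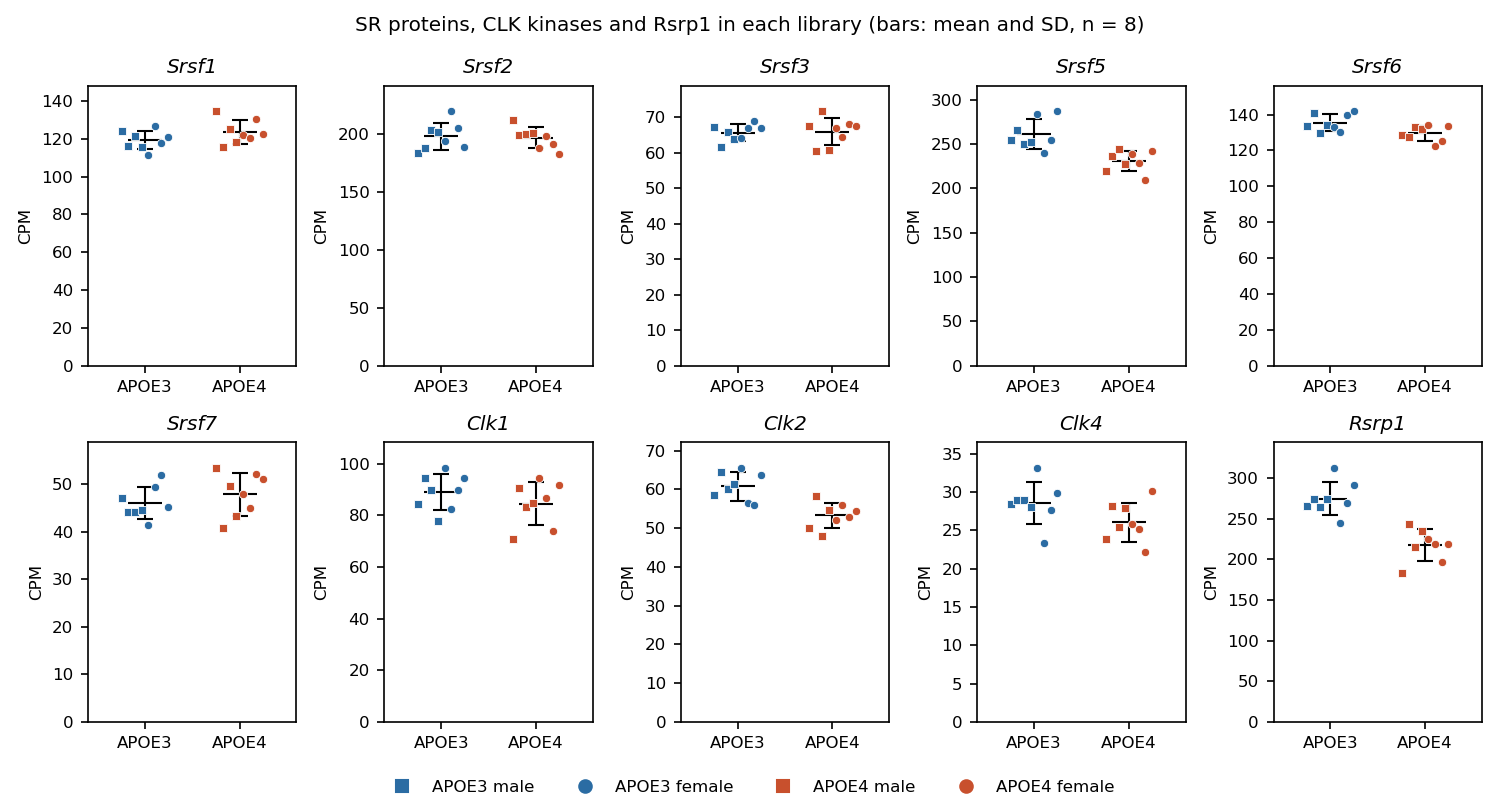
Level of each of the 10 genes in CPM (vertical axes from 0) in every *APOE3* (blue) and *APOE4* (orange) library, with squares for males, circles for females, and bars for the mean and SD of 8 libraries. For Rsrp1 the *APOE4* points lie at 183 to 244 CPM, all below the *APOE3* points at 245 to 313 CPM, while for Srsf2 both genotypes cover about the same range.

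The summed level of the 10 genes was 1240 to 1339 CPM in *APOE3* and 1123 to 1200 CPM in *APOE4* libraries. Rsrp1 accounted for 55.8% and Srsf5 for 29.4% of the difference between the genotype means of this sum, so the sum mainly follows these 2 genes.

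Relatives outside the 10 genes were looked at next. Of 4 other SR proteins tested (Srsf4, Srsf9, Srsf10 and Srsf11), 0 passed in either direction, with a median log2 fold change of -0.04. The largest difference among them was that of Srsf10, a splicing repressor when dephosphorylated, at 0.08 (SE 0.0431, adjusted p = 0.255). Of 8 other kinases that act on SR proteins, including Srpk1, Srpk2 and Dyrk1a, 0 passed, with a median of -0.03. Prpf4b had the largest difference among these at -0.10 (SE 0.0478, adjusted p = 0.170), and the remaining CLK kinase, Clk3, had -0.09 (SE 0.0348, adjusted p = 0.0826). At an unadjusted p under 0.05, 0 of the other SR proteins and 3 of the other kinases (Clk3, Prpf4b and Cdk11b) would pass in edgeR's test. DESeq2 and limma's voom called 0 in either list, and edgeR called 1 kinase after correction for GC content and length. Srsf12 and Srpk3, with at most 7 and 2 counts in any library, were not tested.

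**Figure D2:**
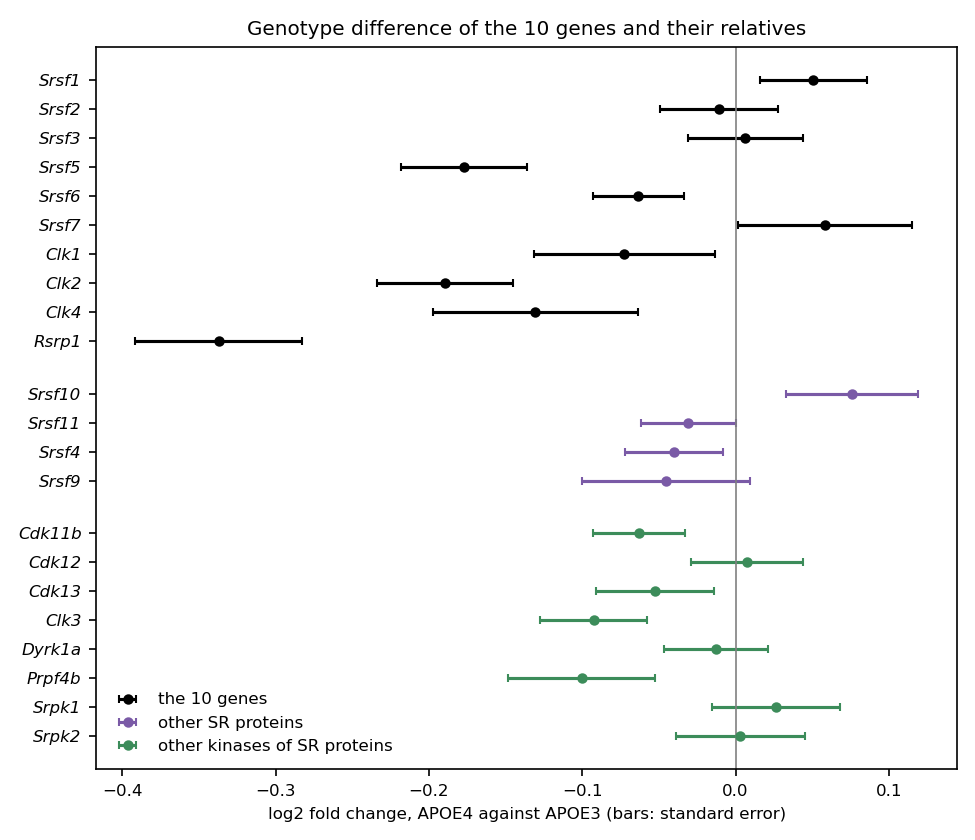
Log2 fold change of *APOE4* against *APOE3* (horizontal axis) with its standard error for the 10 genes (black), the other SR proteins (purple) and the other kinases of SR proteins (green). Rsrp1 lies farthest from 0 at -0.34, Clk2 at -0.19 and Srsf5 at -0.18, and the relatives lie between -0.10 and 0.08.

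The next list held SR-related proteins and other proteins of nuclear speckles. Of 25 tested, 4 (16%) were lower in *APOE4*, beside 6.09% of all genes, and 0 were higher. In this list 22 genes had a log2 fold change below 0, and the median was -0.04, beside -0.00 over all genes. The 4 that fell were Pnisr (-0.17, SE 0.0429, adjusted p = 0.0148), Luc7l (-0.15, SE 0.0387, adjusted p = 0.0165), Srrm2 (-0.15, SE 0.0406, adjusted p = 0.0214) and Son (-0.12, SE 0.0376, adjusted p = 0.0430). Luc7l belongs to the U1 particle's partners, and Srrm2 and Son form the scaffold of the speckle. The count of calls was 2 without *APOE3* replicate 30 or *APOE4* replicate 41, and 0 with the cell cycle score in the fit. Srrm2 fell from 1021 ± 60.8 to 919 ± 48.9 CPM (SD, n = 8 each).

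The hnRNP proteins are RNA-binding proteins that often oppose SR proteins at splice sites. Of 30 tested, 2 (6.67%) were higher in *APOE4*, close to the 6.71% of all genes, and 0 were lower. In this list 19 genes were above 0 and 11 below, with a median of 0.03, and the count of calls was 1 without *APOE3* replicate 30 or *APOE4* replicate 41. Hnrnpa1 rose from 149 ± 11.7 to 176 ± 15.0 CPM and so differed by 0.23 on the log2 scale (SE 0.0538, adjusted p = 0.0110), and Hnrnpa2b1 from 285 ± 11.7 to 312 ± 16.6 CPM with a difference of 0.13 (SE 0.0360, adjusted p = 0.0225). Of 32 core spliceosome genes 0 passed, 25 had a log2 fold change above 0, and the median was 0.03. The largest of these was Snrpd1 at 0.19 (SE 0.0887, adjusted p = 0.158), and 6 had an unadjusted p under 0.05. Limma's voom called 1 gene of this list, DESeq2 called 0, and edgeR called 2 without *APOE3* replicate 25 and 1 without *APOE3* replicate 27 or *APOE4* replicate 35, 36 or 43. Of 14 genes of nonsense-mediated decay, the pathway that removes unproductive transcripts of SR genes, 0 passed with any of these tools and 12 were below 0, led by Casc3 at -0.08 (SE 0.0367, adjusted p = 0.146), the 1 gene of the list with an unadjusted p under 0.05.

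Of 13 nuclear noncoding RNAs and snoRNA host genes tested, 3 (23.1%) were lower in *APOE4*, beside 6.09% of all genes, and 0 were higher, with a median of -0.14. These were Snhg17 (-0.18, SE 0.0502, adjusted p = 0.0255), Snhg20 (-0.28, SE 0.0836, adjusted p = 0.0345) and Neat1 (-0.14, SE 0.0440, adjusted p = 0.0447), the last being the RNA around which paraspeckles form. Without the filter on low counts 0 of the 3 calls held, and with the filter the count was 0 without *APOE3* replicate 30 or 33, 1 without *APOE3* replicate 26 or 32 or *APOE4* replicate 35 or 41, and 5 without *APOE4* replicate 43. Among 11 genes of the heat and cold response, 2 (18.2%) were lower, beside the same 6.09% of all genes. They were the cold-induced RNA-binding protein gene Cirbp (-0.31, SE 0.0586, adjusted p = 0.00628) and the heat-shock gene Hspa1b (-0.45, SE 0.127, adjusted p = 0.0267), whose reads may be shared with its near copy Hspa1a. The median of that list was 0.01. Its count stayed at 2 in 9 of 16 fits without 1 library and was 1 without any 1 of *APOE3* replicates 26, 28, 30 and 33 and *APOE4* replicates 35, 40 and 41. Of 8 immediate-early genes, 1 (12.5%) was lower, beside 6.09% of all genes, namely Ier2 (-0.19, SE 0.0605, adjusted p = 0.0469). This call was lost with sex as a covariate and with GC content and length corrected. Leaving out 1 library kept the count of this list at 1 in 3 of 16 fits. It was 2 without *APOE3* replicate 27 or *APOE4* replicate 43, and 0 without any 1 of *APOE3* replicates 25, 28, 30 and 33 and *APOE4* replicates 35, 36, 37, 38, 39, 40 and 41.

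**Figure D3:**
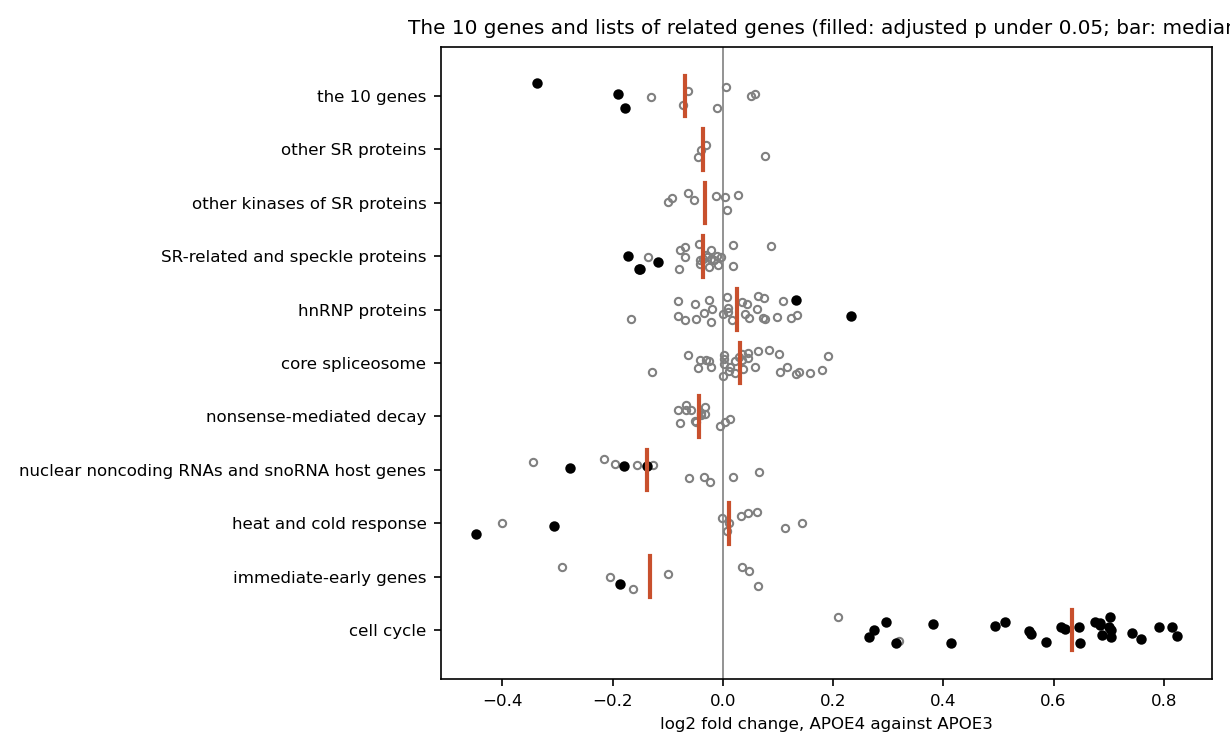
Log2 fold change of *APOE4* against *APOE3* (horizontal axis) of every gene tested in each list, filled where the adjusted p was under 0.05, with an orange bar at the median. The 10 genes have their median at -0.07, the speckle proteins at -0.04, the hnRNP proteins at 0.03 and the cell cycle genes at 0.63.

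The libraries differed in another respect that moved with these genes. Of 30 cell cycle genes, 28 (93.3%) rose in *APOE4*, beside 6.71% of all genes, and 0 fell. Their median difference was 0.63 on the log2 scale, and their summed level was 1375 to 2743 CPM in *APOE3* and 2269 to 3876 CPM in *APOE4* libraries. Those with the smallest adjusted p were Cenpe (0.82, SE 0.170, adjusted p = 0.00787), Ccna2 (0.67, SE 0.142, adjusted p = 0.00817), Nusap1 (0.70, SE 0.147, adjusted p = 0.00817) and, with equal adjusted p, Plk1 (0.76, SE 0.162, adjusted p = 0.00824) and Mki67 (0.68, SE 0.146, adjusted p = 0.00824). Averaged over the list as a cell cycle score, the mean log2 CPM was 5.65 ± 0.343 in *APOE3* and 6.23 ± 0.264 in *APOE4* libraries (SD, n = 8 each). After the score was added to the fit as a second term, 0 of the 10 genes and 0 of 12481 genes had an adjusted p under 0.05 (edgeR), while 2 and 879 had an unadjusted p under 0.05. The log2 fold change of Rsrp1 was then -0.14 (SE 0.0461), that of Clk2 -0.08 (SE 0.0524) and that of Srsf5 -0.03 (SE 0.0384). Srsf2, at -0.01 (SE 0.0385) without the score, had -0.10 (SE 0.0457) with it. Because the 10 genes were chosen from the genotype contrast, their counts in this fit are a description and no support for a difference. The score is itself different between the genotypes, so the fit cannot tell apart what belongs to genotype and what to the score.

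Other library measures also differed by genotype. The share of mitochondrially encoded counts was 0.819 ± 0.0425% in *APOE3* and 0.955 ± 0.0616% in *APOE4* libraries. Human *APOE* itself had a mean log2 CPM of 10.18 ± 0.209 in *APOE3* and 9.62 ± 0.251 in *APOE4* libraries. In every library, each gene's log2 CPM minus its mean over all libraries was regressed on GC content and log2 exon length together. The slope of these deviations on GC content was 0.302 ± 0.358 in *APOE3* and -0.302 ± 0.173 in *APOE4* libraries, in log2 units per unit of GC fraction. The genotype means mirror each other because gene means were subtracted, so only the difference between them can be read. With GC content and length corrected, 3 of the 10 genes again passed. The part of these measures in the difference of the 10 genes was not tested beyond these fits.

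Sex and its interplay with genotype did not serve to choose the genes and were tested. Between females and males, 0 of the 10 genes had an adjusted p under 0.05 and 0 an unadjusted p under 0.05 in edgeR's quasi-likelihood test of 4 groups, beside 0.0721% of all genes passing the adjusted threshold, and 0 passed with DESeq2 or limma's voom. The largest sex difference was that of Clk1, 0.08 higher in females on the log2 scale (SE 0.0600), with 74.0 to 98.5 CPM in females and 70.7 to 94.5 CPM in males. Srsf7 followed with 0.06 (SE 0.0586) and Srsf3 with 0.04 (SE 0.0388). Intervals of 2 SE either side lay between -0.16 and 0.20 over the 10 genes, and a difference of that size could have gone undetected here.

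For the difference in genotype effect between the sexes, 0 of the 10 genes passed the adjusted threshold, 0 had an unadjusted p under 0.05, and 0% of all genes passed, while 345 genes had an unadjusted p under 0.05. No gene of the 10 passed with DESeq2 or limma's voom either. Of the 3 genes lower in *APOE4*, Rsrp1 had a log2 difference of -0.30 in males and -0.37 in females, Clk2 -0.21 and -0.16, and Srsf5 -0.14 and -0.21. The sexes are parts of the same 16 libraries from which the genes were chosen, so the shared direction is a description and no separate support. The largest interaction was that of Srsf2 at -0.15 (SE 0.0718), from 0.06 in males to -0.08 in females, and its adjusted p was 0.9999. For this contrast the intervals of 2 SE either side lay between -0.31 and 0.25. That of Srsf2 ran from -0.293 to -0.00568, just short of 0, and its unadjusted p was 0.0520 in edgeR's test.

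The last question was how the 10 genes varied together between cultures of the same genotype and sex. For this the mean of each genotype and sex was subtracted from log2 CPM, and Pearson's r was taken over the 16 libraries. The libraries share depth, scaling and their overall makeup across genes, and the genes were chosen with these relations known, so the values are a description without p-values. The 45 pairs had a median r of -0.03 but a median absolute r of 0.60, since 22 pairs were positive and 23 negative. In 29 pairs the absolute r was above 0.5, and all 29 had the same sign within *APOE3* and within *APOE4* libraries. The pairs were picked by an r from these same libraries, so the like signs were largely set by the cutoff and are no replication.

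Seen in this way the genes fell into sets, named after the values were seen. In the first set, Srsf5, Clk1, Clk2, Clk4 and Rsrp1, all 10 pairs were positive, with r from 0.48 (Srsf5 and Clk2) to 0.83 (Clk4 and Rsrp1) and a median of 0.76. In the second, Srsf1, Srsf3 and Srsf7, the 3 pairs had r from 0.68 to 0.80. Between the sets all 15 pairs were negative, with a median of -0.65. Srsf1 and Clk4 (r = -0.74, rho -0.66) thus tended to be high in different cultures of the same genotype. The sets did not follow the kind of protein, since the SR protein Srsf5 varied together with Clk4 (r = 0.81) and Clk1 (r = 0.78).

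The strongest relation was between Rsrp1 and Srsf1, with r = -0.92 and rho -0.85. It was -0.84 without the 2 libraries farthest from the median of Srsf1, -0.79 within *APOE3* and -0.98 within *APOE4* libraries, where no means of the sexes were subtracted. Among the 12480 other genes tested, Rsrp1 had the 6th lowest r with Srsf1, and Srsf1 had the 22nd lowest r with Rsrp1. Clk2 and Srsf7 had r = -0.85 (rho -0.82, and -0.85 without the farthest 2), and Clk2 and Srsf3 had r = -0.84 (rho -0.79). Srsf7 and Srsf3, which are close relatives with a single RNA-recognition domain, varied together with r = 0.79. Srsf7 was the 21st highest of 12480 genes for Srsf3, and Srsf3 was the 91st highest for Srsf7.

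Srsf2 and Srsf6 stood outside both sets. Srsf2 ran against Srsf5 (r = -0.76, rho -0.78) and Clk4 (r = -0.68), yet was weakly tied to Srsf1 (r = 0.37) and Srsf3 (r = 0.09). Within *APOE3* libraries its r was -0.65 with Srsf5 and -0.69 with Clk4, and within *APOE4* libraries -0.32 and -0.36. Without the 2 libraries farthest from the median of Srsf1, the r of Srsf1 and Srsf2 was -0.02. Srsf6 was nearest to Srsf5 (r = 0.56, rho 0.53), and its r with Clk2 was -0.03. Of pairs within the first set, Srsf5 and Clk2 were unlike in the genotypes, with r = 0.80 within *APOE3* and -0.03 within *APOE4* libraries, a difference that was not tested.

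**Figure D4:**
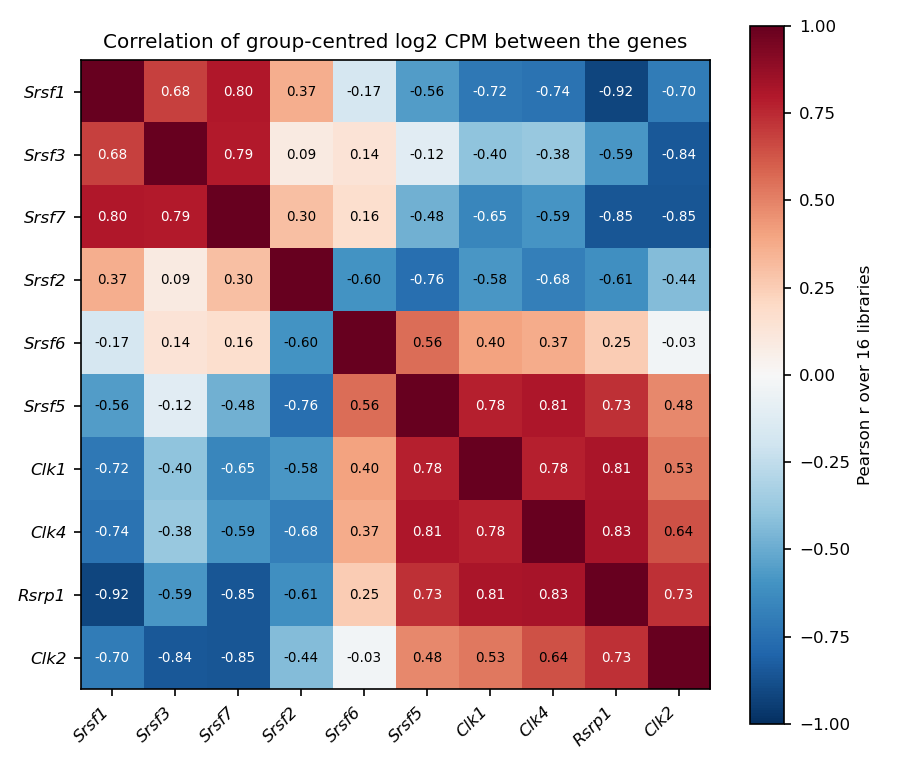
Pearson r between each pair of the 10 genes over 16 libraries, from log2 CPM with the mean of each genotype and sex subtracted (red positive, blue negative). A red block joins Srsf5, Clk1, Clk4, Rsrp1 and Clk2, another joins Srsf1, Srsf3 and Srsf7, and the cells between them are blue, down to -0.92.

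These relations ran along with the cell cycle score within genotype and sex. Srsf5 (r = -0.90), Rsrp1 (-0.88), Clk4 (-0.86), Clk1 (-0.72) and Clk2 (-0.69) were lower where the score was higher, and Srsf2 (0.81), Srsf1 (0.72), Srsf7 (0.65) and Srsf3 (0.33) were higher there. With the score regressed out, the median r was 0.22 in the first set, 0.68 in the second and -0.35 between them. The second set therefore lost less than the first. The first principal component of group-centred values, which held 20.7% of the variance, had r = -0.88 with Srsf5 and -0.87 with Rsrp1.

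Neat1 had r = 0.90 with Rsrp1 and -0.94 with Srsf1, the lowest of all genes for Srsf1. Human *APOE* had r = 0.90 with Clk1, 0.81 with Rsrp1 and -0.74 with Srsf7. The slope of the deviations from gene means on exon length had r = 0.77 with Rsrp1 and -0.71 with Srsf1. The TMM scaling factor had r = -0.78 with Srsf2, 0.60 with Srsf5 and 0.60 with Clk4. The slope of the same deviations on GC content had r from -0.45 (Srsf1) to 0.53 (Clk2). Total count had r between -0.20 and 0.24 with the 10 genes, and the mitochondrial share had r between -0.32 and 0.19. The part of these measures in the relations was not tested.

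**Figure D5:**
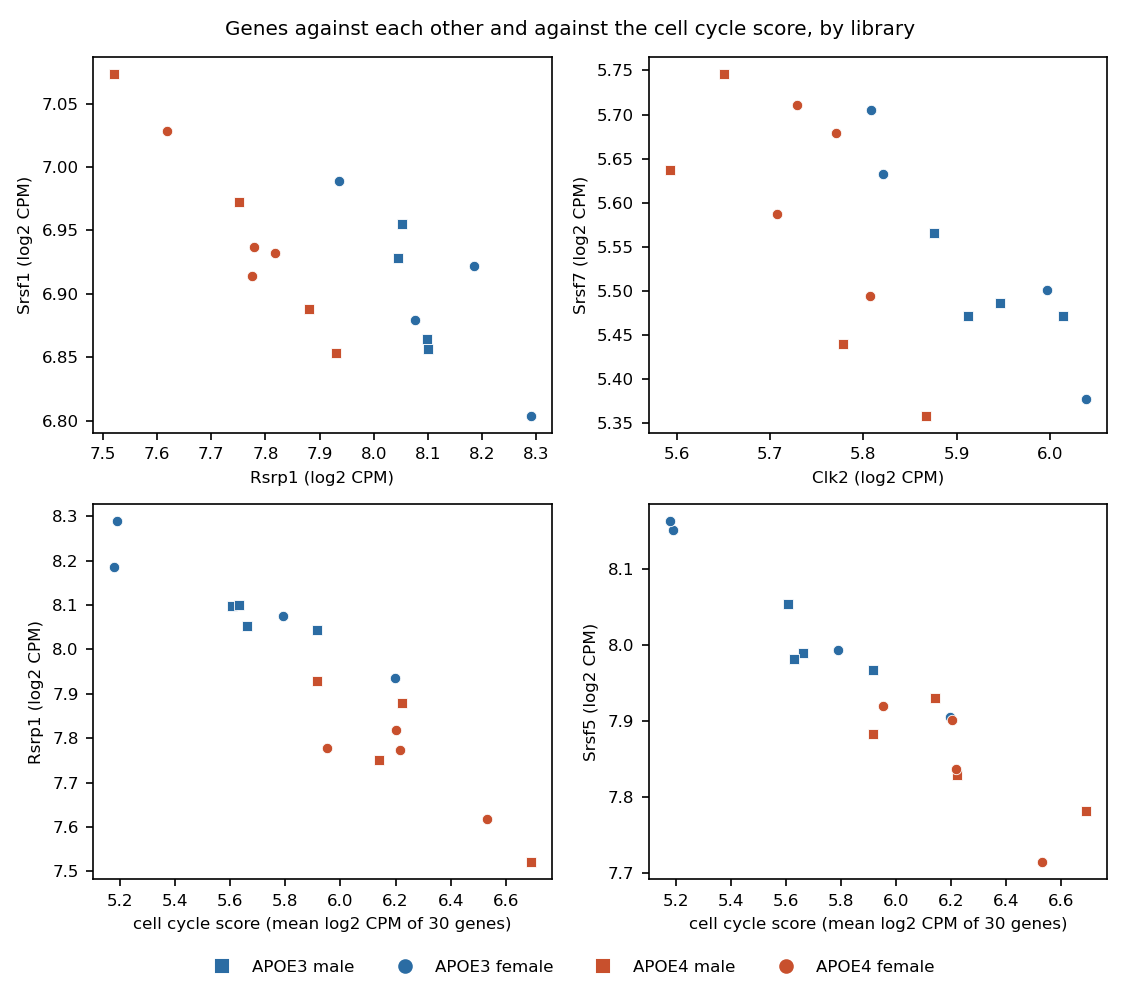
Log2 CPM of Srsf1 against Rsrp1, Srsf7 against Clk2, and Rsrp1 and Srsf5 against the cell cycle score (mean log2 CPM of 30 genes), 1 point per library, blue for *APOE3* and orange for *APOE4*, squares for males and circles for females. Srsf1 is lower where Rsrp1 is higher within each genotype, and Rsrp1 and Srsf5 are lower where the score is higher. The score spans 5.18 to 6.69.

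Finally, for each gene the 3 genes with the highest r over the 16 libraries were taken from all 12481 tested. Rsrp1 was nearest to Nr1d1, the clock repressor Rev-Erb alpha (r = 0.96), to Gpr146 (0.96) and to Tmem44 (0.95). Clk4 was nearest to Tnip2 (0.94), to Ccnl2, a cyclin of the speckle kinase CDK11 (0.94), and to Alkbh5, an RNA demethylase (0.93). Clk1 was nearest to Ssx2ip (0.93), Pcdhga8 (0.92) and 2810029C07Rik (0.91), and Clk2 to Lpin1 (0.90), Dyrk1b (0.89) and Ctdsp2 (0.89). Srsf5 was nearest to Unc45b (0.96), Zfpm1 (0.96) and 4632415L05Rik (0.94), and Srsf6 to Glis3 (0.87), Ddx51 (0.83) and Atp11b (0.82).

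In the second set, Srsf7 was nearest to Pkm, the pyruvate kinase whose exon choice is a textbook case of splicing control (0.93), to the chaperone gene Calr (0.92) and to Hnrnpa3 (0.92). Srsf1 was nearest to Ssr3 (0.93), Gmppb (0.92) and Hmgn1 (0.92), and Srsf3 to Plaa (0.86), Rsl1d1 (0.86) and Dcbld2 (0.86). Srsf2 was nearest to Aes (0.95), to Sgo2a, a protector of chromosome cohesion (0.93), and to Dok1 (0.92). At the other end, chosen after the values were seen, the lowest r with Srsf5 was that of Lpcat1 (-0.97) and the lowest with Rsrp1 that of Cep89 (-0.95). Hmgn1, among the 3 nearest to Srsf1, was the second lowest for Rsrp1 (-0.95). With 16 libraries and 12480 candidates for each gene, high values arise at the ends of the ranking, so these names describe likeness in these cultures and no more.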

How the data were processed

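Counts were deposited by the authors as whole-number counts of reads per gene, without normalization, in 1 table for 16 libraries. Per the labels, libraries were poly-A selected, strand-selected and amplified by 17 cycles of PCR, and the submitters' processing notes name STAR, featureCounts, mm10 and hg38. Versions, annotation release, strand setting and treatment of multi-mapping reads are not given in the sources used here. Reads carry no molecular identifiers, so precision from depth (12717847 to 18624417 counts per library) covers counting error only. All columns were mapped to a library by label, and 38872 of 39057 rows to GENCODE vM21 by identifier.

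The tests ran in R 4.3.3, the main one in edgeR 4.0.16 (filterByExpr by genotype, TMM, quasi-likelihood F test, genotype as the single term), with Benjamini-Hochberg adjustment over 12481 genes at 0.05. Sex and genotype by sex came from a fit of 4 groups. SE was derived from F and the log2 fold change, and the prior count for log2 CPM was 2. Fits were tested on simulated counts whose changes were larger than those of the 10 genes, so recovery of changes of their size was not tested. Alternatives were DESeq2 1.42.0 (size factors, Wald test), limma 3.58.1 voom with quality weights, no filter, a minimum of 10 counts in all libraries, sex or the cell cycle score as covariate, and each library left out. Correction for GC content and length, and the cell cycle score regressed out of correlations, were added after seeing the data. Figures were made with matplotlib.

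The genes and lists were chosen with earlier results of these data known. Named beside the 10 genes are up to 4 genes per list with the smallest adjusted p, or the gene with the largest difference where none passed, and the 3 genes nearest to each by r. Any other gene was named after its values were seen.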

Additional observations from a re-analysis of the deposited data

How the results depend on the processing

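Of the 10 genes, 3 (Rsrp1, Clk2 and Srsf5) passed under DESeq2's size factors and Wald test, limma's voom, no filter, at least 10 counts in every library, sex as a covariate and the GC and length correction, and in all 16 fits without 1 library (3 to 3). After adding the cell cycle score to the fit, 0 of the 10 passed, 0 of the genes in the related lists (12 otherwise) and 0 of all genes (1597 otherwise), and the log2 fold changes of Srsf1 (-0.0406), Srsf3 (-0.0280), Srsf7 (-0.0777), Clk1 (0.105) and Clk4 (0.0981) turned sign. Those of Srsf3 (-0.0416) and Srsf7 (-0.00953) also turned with GC content and length corrected. The cause was not tested. Other alternatives gave 1290 (no filter) to 1958 (DESeq2's Wald test) genes. Without 1 library, all genes called ran from 846 (without *APOE4* replicate 41; 853 and 952 without *APOE3* replicates 30 and 33) to 2127 (without *APOE3* replicate 31), genes in the lists from 4 (without *APOE3* replicate 30; 6 without *APOE3* replicate 33 and 5 without *APOE4* replicate 41) to 18 (without *APOE4* replicate 43), Rsrp1 from -0.36 to -0.31, Clk2 from -0.21 to -0.17, Srsf5 from -0.19 to -0.16, Srsf2 from -0.0273 to 0.0116 and Srsf3 from -0.0117 to 0.0228. Sex differences turned sign for Clk2 (-0.0167 to 0.0301), Clk4 (-0.0574 to 0.0255), Rsrp1 (-0.0260 to 0.0412), Srsf1 (-0.0136 to 0.0232) and Srsf6 (-0.00719 to 0.0149). The median r over pairs ran from -0.11 to 0.06. No paired analysis was possible because the genotypes share no replicate numbers.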
